A study of Homo sapiens with 30 samples.

Results

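The secreted and membrane mucins were 7 genes, MUC1, MUC2, MUC4, MUC5AC, MUC5B, MUC6 and MUC13, read by every probe set whose platform symbol is exactly one of these names. That rule gave 15 of the 22215 probe sets tested: 4 for MUC5AC, 3 each for MUC1 and MUC4, 2 for MUC5B, and 1 each for MUC2, MUC6 and MUC13. The cells were a mixed layer of 75% Caco-2, a colorectal carcinoma line with an enterocyte-like mature state, and 25% HT29-MTX, a methotrexate-selected colon carcinoma line that secretes mucus. After 14 days on permeable Transwell supports, the layers received multi-walled carbon nanotubes (MWCNT) at 100 or 10 µg/ml, titanium dioxide nanobelts (TiO2-NB) at 100 or 10 µg/ml, or fresh medium without particles as the control, each for 24 h or 1 h and from the apical side. These 10 groups had 3 arrays each, 30 in all, labelled as biological replicates, and no genetic change was introduced in any group. Both are established tumour lines, so goblet-like cells are represented by the HT29-MTX line alone. All levels below are log2 values summarised by RMA (a background correction, quantile normalisation and median polish), so a difference of 1 is a doubling relative to the other transcripts of the same arrays.

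Mucins are long glycoproteins whose serine- and threonine-rich repeats carry dense O-linked sugar chains. The secreted gel-forming mucins (MUC2, MUC5AC, MUC5B and MUC6) polymerise through disulphide bonds into mucus, while the membrane mucins (MUC1, MUC4 and MUC13) stay anchored at the apical surface, where they form part of the glycocalyx and can signal through their cytoplasmic tails. MUC2 is the main gel-forming mucin of the normal intestine, MUC13 is abundant on intestinal epithelium, and MUC5AC and MUC6 are chiefly gastric mucins. HT29-MTX cells are known for secreting gastric-type mucus, with MUC5AC as its main component.

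The RefSeq promoter table (GRCh38.p14) held 4 of the 7 genes, MUC1, MUC2, MUC4 and MUC13. The promoters of MUC13 and MUC2 are shown because these genes gave the calls among the 5 groups at 1 h. Each run is the 250 bases before the annotated start, on the gene's own strand, at chr3:124934752-124935001 (minus strand) for MUC13 and chr11:1074624-1074873 (plus strand) for MUC2, and capitals mark motif matches on either strand.
MUC13: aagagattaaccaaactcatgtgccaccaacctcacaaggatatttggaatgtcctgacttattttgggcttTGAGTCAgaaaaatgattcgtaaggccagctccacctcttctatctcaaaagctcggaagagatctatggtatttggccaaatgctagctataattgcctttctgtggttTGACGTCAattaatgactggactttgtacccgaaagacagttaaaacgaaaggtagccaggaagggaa
MUC2: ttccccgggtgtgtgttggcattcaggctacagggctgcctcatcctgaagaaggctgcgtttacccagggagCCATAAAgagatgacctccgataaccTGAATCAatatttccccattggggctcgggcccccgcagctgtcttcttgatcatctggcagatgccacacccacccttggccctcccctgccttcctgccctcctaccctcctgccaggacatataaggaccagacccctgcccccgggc
In MUC13 the capitals mark an AP-1 motif (TGANTCA), 178 bases before the start, and a cyclic AMP response element (TGACGTCA), 68 bases before it. Of 35114 promoters of this length, 6.57% held the AP-1 motif and 1.65% the cyclic AMP response element. In MUC2 they mark an AP-1 motif at 151 bases and a caudal homeobox motif (TTTATNG, present in 8.93% of promoters) at 177 bases. The GC box (GGGCGG, in 42.6% of promoters) and the E-box (CACGTG, in 6.35%) had no match in either window, and the MUC1 and MUC4 windows held GC boxes alone among the 5 motifs searched. A match is a description of the letters and was not tested as a binding site.

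The arrays were alike in scale, with medians of 6.45 to 6.49, and arrays of a group correlated at 0.997 or more over all probe sets. The 16 enterocyte markers lay at a median percentile of 93.5 of the probe sets tested, and 15 of them were above the median probe set. Of the 12 goblet markers 11 were measured, at a median percentile of 64.1. AGR2, TFF1, ZG16, TFF2 and TFF3 were high (mean levels of 13.10, 12.77, 12.11, 11.56 and 11.53), while CLCA1 (4.25) and ATOH1 (5.36) were low. Markers of cells that should be absent lay at median percentiles of 29.7 (leukocyte, 8 measured), 36.2 (fibroblast and endothelial, 8 measured) and 22.5 (enteroendocrine and Paneth, 9 measured), with LYZ, listed for both leukocytes and Paneth cells, the highest of them at percentile 95.3. The mean level of the goblet list ran from 8.86 to 9.0 over the 10 groups, and that of the enterocyte list from 10.58 to 10.68. Of the 8 leukocyte markers, LYZ and NKG7 were called higher in all 4 exposures at 1 h and CD53 in TiO2-NB at 100 µg/ml. Of all probe sets, 0.905% were called higher in all 4 at 1 h, and 2.65% in TiO2-NB at 100 µg/ml. The leukocyte list's mean level at 1 h was 5.71 to 5.81 in the exposed groups, against 5.69 in the control, with PTPRC, the pan-leukocyte antigen, at percentile 11.7, and its part in the mucin results was not tested.

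Against their own probe sets' positions on the array, the mucins ranged from high to near the floor. MUC13 had a mean over all 30 arrays of 9.83 (percentile 87.2). The highest probe sets of the other genes were 7.11 for MUC1 (213693_s_at, percentile 58.0), 6.72 for MUC5AC (214303_x_at, 53.2), 6.14 for MUC6 (45.6), 6.07 for MUC2 (44.6), 5.67 for MUC5B (213432_at, 38.5) and 4.98 for MUC4 (204895_x_at, 27.8). The lowest was MUC4 217110_s_at at 2.96 (percentile 5.15). These positions are not a ranking of transcript amounts, because probe sets differ in their own response.

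Against the control of the same time, MUC13 rose in all 4 exposures at 1 h and in none at 24 h. A MUC5B probe set rose in MWCNT at 10 µg/ml and in TiO2-NB at 100 µg/ml at 1 h, a MUC5AC probe set rose in TiO2-NB at 100 µg/ml at 24 h, and a MUC4 probe set near the array's floor fell in MWCNT at 100 µg/ml at 1 h. In all, 8 of the 120 tests passed (7 higher, 1 lower) at an adjusted p under 0.05 in limma. MUC1, MUC2 and MUC6 gave no call against control. The 8 calls against control lie on 218687_s_at (MUC13), 222268_x_at (MUC5B), 214303_x_at (MUC5AC) and 217110_s_at (MUC4). Most member probe sets, called or not, end in _s_at or _x_at, and MUC13 has no other probe set. Probe sets with these endings can also match other transcripts, by the array maker's naming. The 4 comparisons of a time share their 3 control arrays, so they are not independent. In RNA from whole layers, fewer cells of a type and less RNA per cell cannot be told apart.

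**Figure D1:**
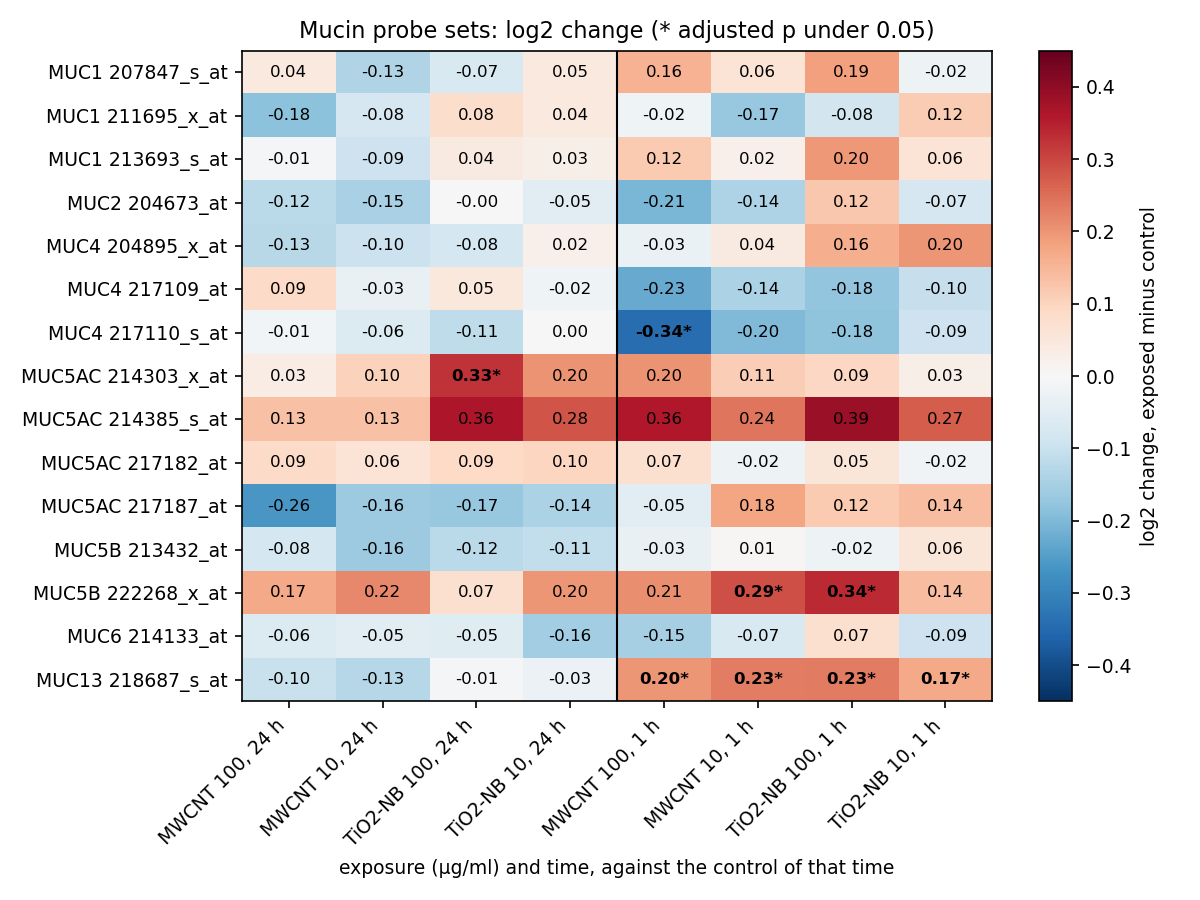
Log2 change of each mucin probe set (rows) in each exposure against the control of its time (columns, 24 h on the left and 1 h on the right), written in each cell and coloured from blue (lower) to red (higher); asterisks mark an adjusted p under 0.05. The MUC13 row is called in all 4 columns at 1 h, between 0.17 and 0.23, and the other 4 calls lie in MUC5B, MUC4 and MUC5AC.

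At 1 h, 1 of the 15 members rose and 1 fell in MWCNT at 100 µg/ml, where 7.78% of all probe sets were called, 3.51% higher and 4.27% lower. In MWCNT at 10 µg/ml 2 members rose, with 6.46% of all probe sets called, 2.56% higher and 3.90% lower. In TiO2-NB 2 members rose at 100 µg/ml, with 8.43% of all probe sets called (2.65% higher, 5.78% lower), and 1 rose at 10 µg/ml, with 7.84% called (2.61% higher, 5.24% lower). At 24 h, 1 member rose in TiO2-NB at 100 µg/ml, where 3.53% of all probe sets were called, 0.729% higher and 2.80% lower. No member was called in MWCNT at 100 µg/ml (0.00900% of all probe sets), MWCNT at 10 µg/ml (0.00450%) or TiO2-NB at 10 µg/ml (0.0585%, with 0.0225% higher and 0.0360% lower). In those 3 comparisons, 0, 3 and 2 members had an unadjusted p under 0.05 in limma. Of all 22215 probe sets, 1236, 952 and 1686 did, in the same order. The median change of the 15 probe sets lay between -0.02 and 0.12 at 1 h, and that of all probe sets between -0.01 and 0.01. Exposed and control arrays did not overlap in 21.3% to 23.7% of all probe sets at 1 h and in 12.2% to 22.5% at 24 h. Of the 15 members, 5 lay above and 3 below the control without overlap in MWCNT at 100 µg/ml at 1 h. The 1 h counts were 2 and 3 in MWCNT at 10 µg/ml, 7 and 1 in TiO2-NB at 100 µg/ml, and 3 and 0 at 10 µg/ml. At 24 h they were 1 and 2, 1 and 4, 2 and 1, and 2 and 3, with the exposures in the same order. These counts were not tested.

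MUC13, the transmembrane mucin with the highest position on the array, gave 4 of the 8 calls against control. At 1 h its levels were 9.91, 9.86 and 9.85 in MWCNT at 100 µg/ml, 9.87, 9.94 and 9.90 in MWCNT at 10 µg/ml, 9.94, 9.86 and 9.93 in TiO2-NB at 100 µg/ml, and 9.86, 9.89 and 9.78 in TiO2-NB at 10 µg/ml, against 9.58, 9.73 and 9.71 in the control. All 12 exposed arrays (lowest 9.78, median 9.88, highest 9.94) lay above the highest control array, and the first control array was the lowest of all 30.
The change was 0.20 ± 0.05 in MWCNT at 100 µg/ml (limma standard error, n = 3 arrays per group, 1.15-fold, adjusted p = 0.0118) and 0.23 ± 0.05 in MWCNT at 10 µg/ml (1.17-fold, adjusted p = 0.00434). In TiO2-NB it was 0.23 ± 0.05 at 100 µg/ml (1.18-fold, adjusted p = 0.00279) and 0.17 ± 0.05 at 10 µg/ml (1.12-fold, adjusted p = 0.0316). MUC13 was the 1 member of 15 that passed as higher in all 4 exposures at 1 h, as did 0.905% of all probe sets, and the 1 member that lay above the control without overlap in all 4, as did 2.48% of all probe sets.

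At 24 h no MUC13 comparison with control passed. The levels were 9.81, 9.77 and 9.76 in MWCNT at 100 µg/ml, 9.69, 9.88 and 9.68 in MWCNT at 10 µg/ml, 9.85, 9.91 and 9.85 in TiO2-NB at 100 µg/ml, and 9.87, 9.84 and 9.84 in TiO2-NB at 10 µg/ml, against 9.90, 9.84 and 9.90 in the control. The 3 arrays of MWCNT at 100 µg/ml lay below every control array, as was so for 7.23% of all probe sets. The other exposures overlapped the control. The changes were -0.10 in MWCNT at 100 µg/ml (95% interval -0.20 to 0.00), -0.13 in MWCNT at 10 µg/ml (-0.23 to -0.03, adjusted p = 1.00), -0.01 in TiO2-NB at 100 µg/ml (-0.11 to 0.09) and -0.03 in TiO2-NB at 10 µg/ml (-0.13 to 0.07).

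**Figure D2:**
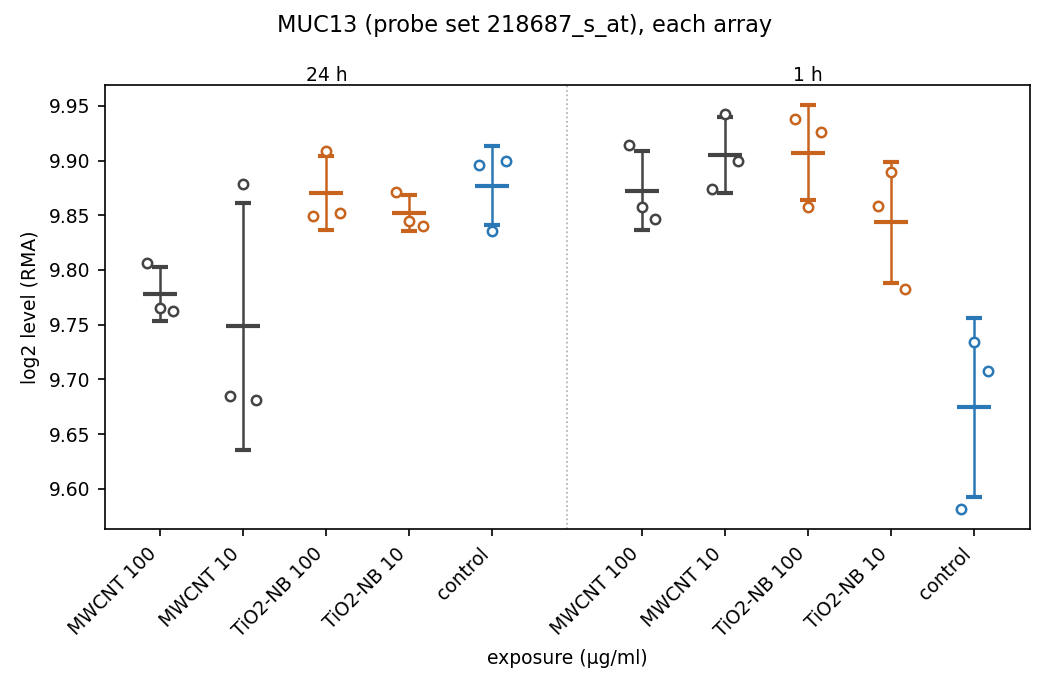
MUC13 log2 level on each array (open circles) by group, with the group mean (bar) and SD (whiskers, n = 3), 24 h on the left and 1 h on the right, in grey for MWCNT, orange for TiO2-NB and blue for the control. The 12 exposed arrays at 1 h sit above the 3 control arrays of that time, while the 24 h control lies at 9.84 to 9.90, among the exposed groups.

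Ordered over all 10 groups, MUC13 averaged 9.91 in TiO2-NB at 100 µg/ml and 9.91 in MWCNT at 10 µg/ml (both 1 h), and 9.67 in the 1 h control, the lowest group. Neighbours in that order differed by more than the residual SD of 0.05 in 2 of 9 steps, 0.07 each, between TiO2-NB at 10 µg/ml at 1 h and MWCNT at 100 µg/ml at 24 h and between MWCNT at 10 µg/ml at 24 h and the 1 h control. In the other mucin probe sets no neighbours differed by more than their residual SD, except in 1 of 9 steps each for MUC5AC 214303_x_at and MUC5B 222268_x_at. The exposure effect on MUC13 was lower at 24 h than at 1 h by the interaction test in limma, which also holds the controls' own rise of 0.20 from 1 h to 24 h. The difference was -0.30 ± 0.07 for MWCNT at 100 µg/ml (adjusted p = 0.0189), -0.36 ± 0.07 for MWCNT at 10 µg/ml (0.00674) and -0.24 ± 0.07 for TiO2-NB at 100 µg/ml (0.0365). For TiO2-NB at 10 µg/ml it was -0.19 ± 0.07 and did not pass (adjusted p = 0.121). Among all probe sets, 2.71%, 1.79%, 5.84% and 3.83% were called in these 4 tests, in the same order, and no other mucin probe set was. The call for MWCNT at 100 µg/ml was lost without the first 1 h control array (adjusted p = 0.0501). The call for TiO2-NB at 100 µg/ml was lost without the first 1 h control array, the first or the third 24 h control array, or the first or the third array of the exposure at either time (up to 0.0982), and with the replicate numbers as a block (0.0580).

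The 5′ probe set of 18S ribosomal RNA was higher at 1 h by 1.51 in MWCNT at 100 µg/ml, 1.17 in MWCNT at 10 µg/ml, 0.80 in TiO2-NB at 100 µg/ml and 0.84 in TiO2-NB at 10 µg/ml (exact two-sided permutation p = 0.1, the smallest possible with 3 arrays against 3, except p = 0.4 in the last). At 24 h the same differences were 0.06, 0.24, 0.19 and 0.40. The 28S 5′ probe set was higher at 1 h by 0.65, 0.47, 0.34 and 0.44 in that order. The 28S middle probe set was lower, with differences of -0.14, -0.03, -0.11 and -0.003. The 3′ minus 5′ difference moved at 1 h by -0.01 to 0.01 for GAPDH and by -0.04 to 0.02 for ACTB. No permutation test of these RNA measures had a Benjamini-Hochberg adjusted p under 0.315. With the 18S level as a covariate MUC13 kept its call in MWCNT at 10 µg/ml and in TiO2-NB at 100 µg/ml and lost it in MWCNT at 100 µg/ml (adjusted p = 0.193) and TiO2-NB at 10 µg/ml (0.0871). The MUC13 changes with the covariate were 0.19, 0.22, 0.23 and 0.16 in the order of exposures above, about as large as without it. The interaction kept its call for MWCNT at 10 µg/ml (-0.35, adjusted p = 0.0211) and lost it for MWCNT at 100 µg/ml (-0.29, 0.119) and TiO2-NB at 100 µg/ml (-0.24, 0.0597), also with changes of about the same size. Without the first 1 h control array, the calls in MWCNT at 100 µg/ml (adjusted p = 0.0781) and TiO2-NB at 10 µg/ml (0.154) were lost too.

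MUC1, a membrane mucin found on most glandular epithelia, was read by 3 probe sets and gave no call in any comparison. For the highest of them, 213693_s_at, the 12 exposed arrays at 24 h had a lowest, median and highest level of 7.01, 7.12 and 7.23, against 7.15, 7.14 and 7.10 in the control arrays. At 1 h the exposed arrays had 6.88, 7.13 and 7.35, against 7.07, 7.12 and 6.86 in the control arrays, so the ranges overlapped at both times. Over the 8 comparisons with control, its changes ran from -0.09 to 0.20, those of 207847_s_at from -0.13 to 0.19, and those of 211695_x_at from -0.18 to 0.12. The 95% intervals of the single tests, over the 3 probe sets, reached from -0.41 to 0.38. They are not a joint interval for MUC1. The smallest unadjusted p was 0.0249, for 213693_s_at in TiO2-NB at 100 µg/ml at 1 h (0.20 ± 0.08, adjusted p = 0.154), where the arrays had 7.17, 7.18 and 7.29 and lay above every control array. Of all probe sets, 9.94% lay above the control without overlap in that comparison. The 3 probe sets varied separately over the 30 arrays, with pairwise correlations of -0.13 to 0.25, which are descriptions over arrays that share groups and normalisation.

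MUC4, a large membrane mucin whose membrane subunit can bind the receptor ERBB2, lay lowest on the array, and its 3 probe sets had correlations of 0.00 to 0.13 with each other. On 217110_s_at the levels at 1 h were 2.68, 2.85 and 2.89 in MWCNT at 100 µg/ml, against 3.13, 3.07 and 3.25 in the control, with no overlap. Of all probe sets, 11.4% lay below the control without overlap in that comparison. The fall of 0.34 passed (a log2 change of -0.34 ± 0.10, adjusted p = 0.0390). It lost the call when any 1 of the 6 arrays was left out (adjusted p 0.0512 to 0.143), with the replicate numbers as a block (0.0512), with array weights (0.117) and with the 18S level as a covariate (0.366, a change of -0.30). The other MUC4 probe sets changed by -0.03 (204895_x_at) and -0.23 (217109_at) in the same comparison, and neither passed.

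Of the secreted mucins, MUC2 differed among the groups at 1 h without a call against control. At 1 h its levels were 5.88, 5.85 and 5.95 in MWCNT at 100 µg/ml, 6.10, 5.85 and 5.93 in MWCNT at 10 µg/ml, 6.21, 6.19 and 6.26 in TiO2-NB at 100 µg/ml, and 6.02, 6.03 and 6.02 in TiO2-NB at 10 µg/ml, against 6.18, 6.00 and 6.11 in the control. The arrays of MWCNT at 100 µg/ml lay below all control arrays, and those of TiO2-NB at 100 µg/ml lay above them. Of all probe sets, 11.4% lay below in the first case and 9.94% above in the second. The change against control was -0.21 ± 0.07 in MWCNT at 100 µg/ml (adjusted p = 0.0738) and 0.12 ± 0.07 in TiO2-NB at 100 µg/ml (adjusted p = 0.326).
The F-test over the 5 groups of 1 h called MUC2 (adjusted p = 0.0208) and MUC13 (adjusted p = 0.00939), with 8.52% of all probe sets called. The MUC2 call was lost without the first (0.0509) or the third (0.0620) array of TiO2-NB at 100 µg/ml, and the MUC13 call without the first control array (0.0930). With the 18S level as a covariate both calls were lost (adjusted p = 0.0721 for MUC2 and 0.0879 for MUC13). When the lowest 1 in 3 of probe sets were left out, MUC2 in MWCNT at 100 µg/ml passed against control (adjusted p = 0.0453). At 24 h the F-test called no member, with 3.14% of all probe sets called, although 2 members, MUC13 and MUC5AC 214303_x_at, had an unadjusted p under 0.05 in limma. MUC2 at 24 h ran from 5.92 to 6.24 with a median of 6.12 over the 12 exposed arrays, against 6.13, 6.07 and 6.30 in the control, and the ranges overlapped.

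**Figure D3:**
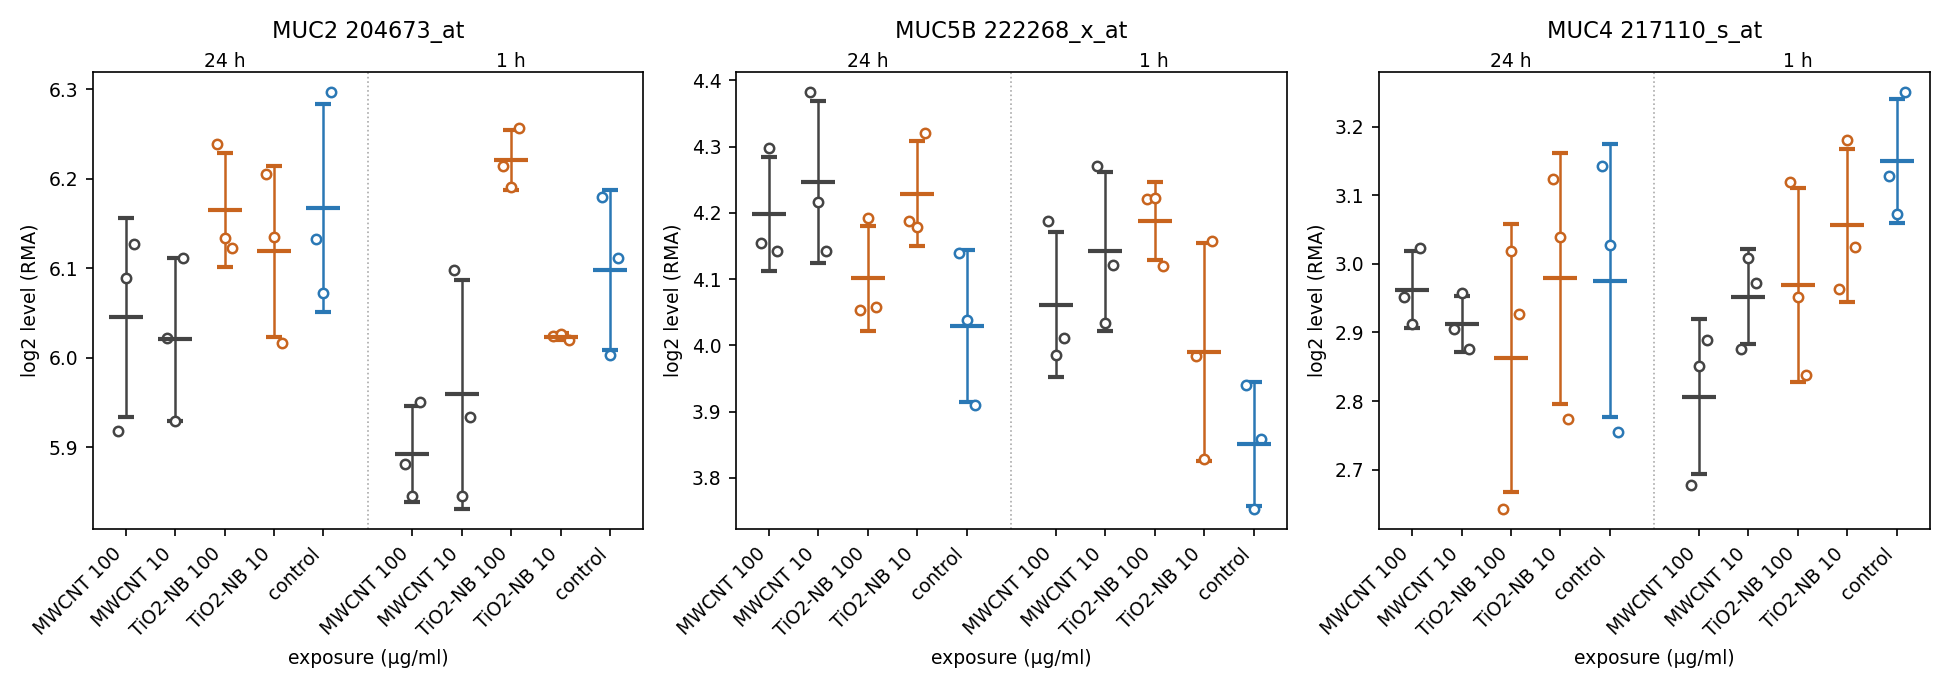
Log2 level on each array (open circles) for MUC2 204673_at, MUC5B 222268_x_at and MUC4 217110_s_at, by group, with the mean (bar) and SD (whiskers, n = 3), 24 h on the left of each panel and 1 h on the right; grey is MWCNT, orange TiO2-NB and blue the control. At 1 h the MUC2 arrays of MWCNT at 100 µg/ml (5.85 to 5.95) and of TiO2-NB at 100 µg/ml (6.19 to 6.26) are apart, and the MUC5B control arrays (3.75 to 3.94) lie below 11 of the 12 exposed arrays.

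MUC5AC, the gastric gel-forming mucin that HT29-MTX cells secrete, had 4 probe sets, which fell into unlike patterns. The probe sets 214303_x_at and 214385_s_at varied together (r = 0.77 over 30 arrays), whereas the other pairs had correlations of -0.42 to 0.24. By the array maker's naming, probe sets ending in _s_at or _x_at can also match other transcripts.
On 214303_x_at the levels at 24 h were 7.0, 6.89 and 6.92 in TiO2-NB at 100 µg/ml, against 6.68, 6.61 and 6.55 in the control. These 3 arrays lay above every control and MWCNT array of 24 h and overlapped those of TiO2-NB at 10 µg/ml, which had 6.77, 6.89 and 6.77. The change was 0.33 ± 0.08 for TiO2-NB at 100 µg/ml (1.25-fold, adjusted p = 0.0234) and 0.20 ± 0.08 for TiO2-NB at 10 µg/ml (adjusted p = 0.577). In MWCNT the changes were 0.03 at 100 µg/ml and 0.10 at 10 µg/ml. At 1 h the mean of 214303_x_at was 6.81 in MWCNT at 100 µg/ml, against 6.61 in the control, without a call. Those arrays lay above the control without overlap, as did 9.91% of all probe sets. Over all 8 comparisons with control, the changes of 214303_x_at ran from 0.03 to 0.33.
On 214385_s_at the levels at 24 h were 6.70, 6.45 and 6.76 in TiO2-NB at 100 µg/ml, against 6.26, 6.14 and 6.42 in the control, without overlap. The change of 0.36 ± 0.16 did not pass (adjusted p = 0.337). The probe set was nominally higher in all 8 exposures (0.13 to 0.39), with no call, and its 3 control arrays at 1 h were the tightest group, at 6.20, 6.22 and 6.18. The 2 remaining probe sets, 217182_at and 217187_at, changed by 0.09 and -0.17 in TiO2-NB at 100 µg/ml at 24 h and did not pass. All 12 exposed arrays of 217187_at at 24 h (5.85 to 6.11) lay below the lowest control array (6.12, 6.21 and 6.28), with changes of -0.26 in MWCNT at 100 µg/ml, -0.16 in MWCNT at 10 µg/ml, -0.17 in TiO2-NB at 100 µg/ml and -0.14 in TiO2-NB at 10 µg/ml, none of which passed. Of all probe sets, 7.23%, 5.64%, 9.48% and 6.89% lay below the control without overlap in these comparisons, in the same order. The 214303_x_at call was lost without the second or the third control array or the first or the third exposed array (adjusted p up to 0.127).

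**Figure D4:**
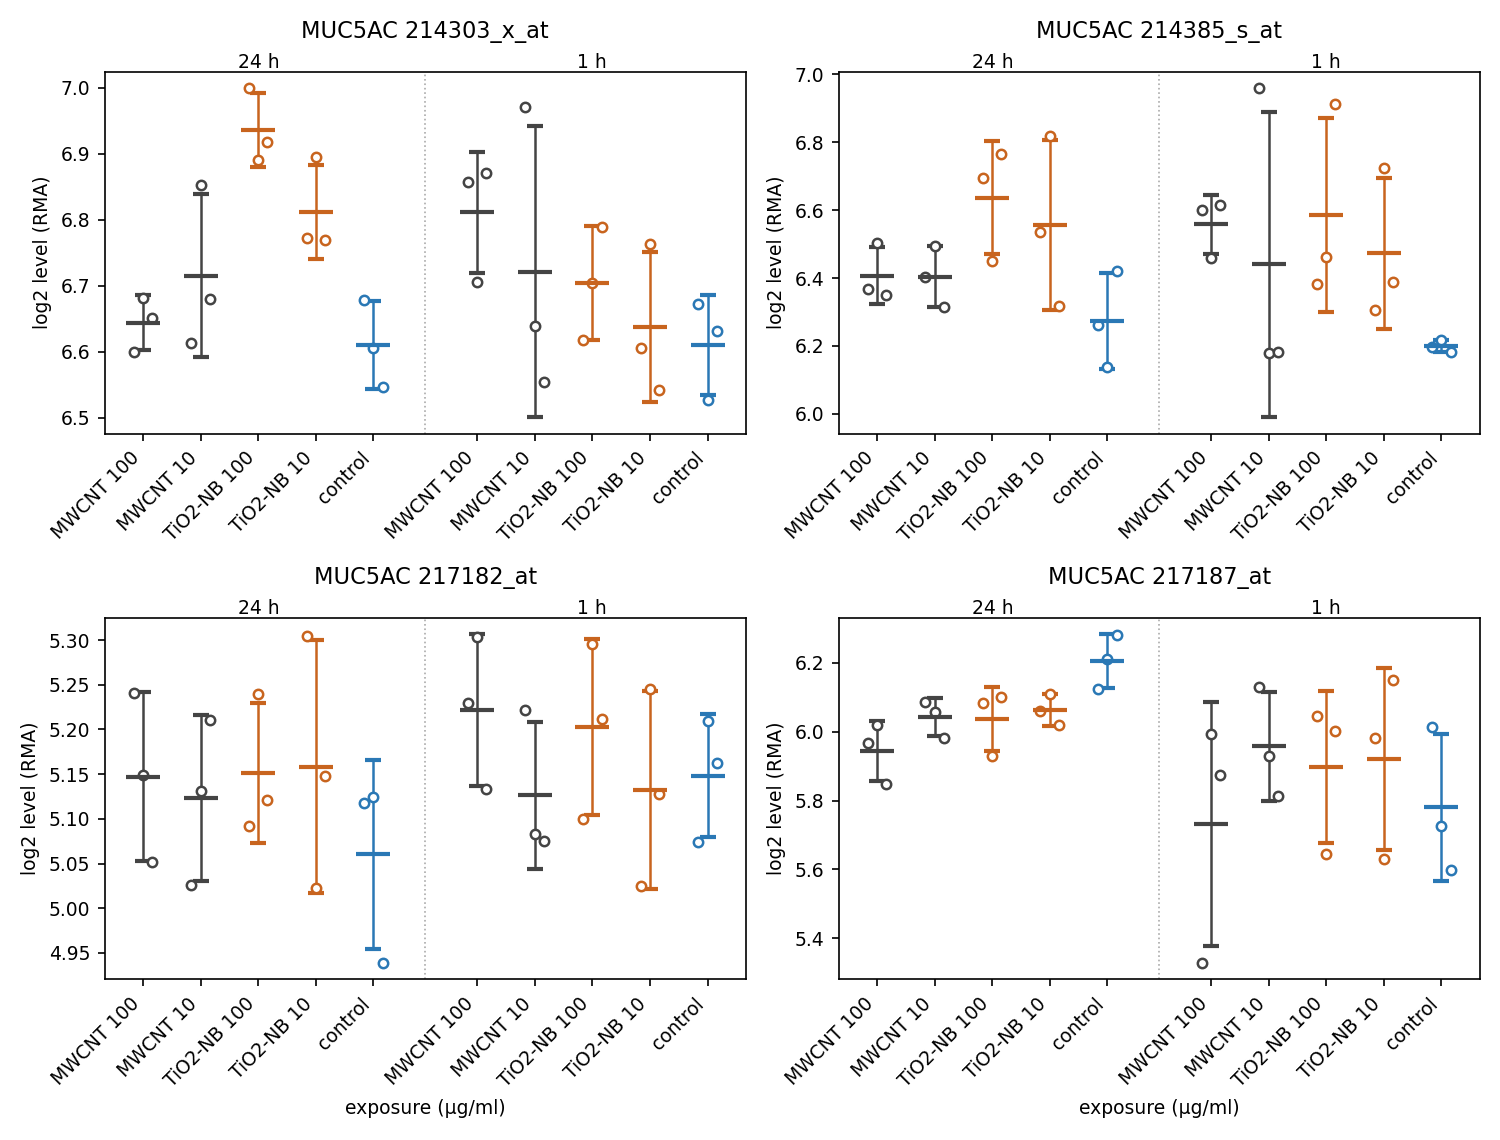
Log2 level on each array (open circles) for the 4 MUC5AC probe sets by group, with the mean (bar) and SD (whiskers, n = 3), 24 h on the left of each panel and 1 h on the right; grey is MWCNT, orange TiO2-NB and blue the control. On 214303_x_at the TiO2-NB groups at 24 h average 6.94 (100 µg/ml) and 6.81 (10 µg/ml), above the control at 6.61, while 217187_at puts the 24 h control highest, at 6.12 to 6.28.

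MUC5B, a gel-forming mucin of airway, salivary and biliary secretions, had probe sets that did not move together (r = 0.09 over 30 arrays). On 222268_x_at, at percentile 16.6, the levels at 1 h were 4.19, 3.99 and 4.01 in MWCNT at 100 µg/ml, 4.27, 4.03 and 4.12 in MWCNT at 10 µg/ml, 4.22, 4.22 and 4.12 in TiO2-NB at 100 µg/ml, and 3.98, 3.83 and 4.16 in TiO2-NB at 10 µg/ml, against 3.94, 3.75 and 3.86 in the control. Of the 12 exposed arrays, 11 lay above the highest control array. It rose by 0.29 ± 0.08 in MWCNT at 10 µg/ml (1.22-fold, adjusted p = 0.0380) and, in TiO2-NB at 100 µg/ml, by 0.34 ± 0.08 (1.26-fold, adjusted p = 0.0122). The changes of 0.21 in MWCNT at 100 µg/ml and 0.14 in TiO2-NB at 10 µg/ml did not pass. At 24 h, 10 of the 12 exposed arrays lay above the highest control array, with no call. Over all 8 comparisons with control, the changes of 222268_x_at ran from 0.07 to 0.34.
The other probe set, 213432_at, lies higher on the array and changed by -0.16 to 0.06 over the 8 comparisons, with no call. In MWCNT at 10 µg/ml the 222268_x_at call was lost without the second or the third control array or the first or the third exposed array (adjusted p up to 0.205), and in TiO2-NB at 100 µg/ml without the second control or the second exposed array (up to 0.0684). The call in MWCNT at 10 µg/ml was also lost with an intensity trend and robust variances (adjusted p = 0.0509) and with array weights (0.0799, a change of 0.26).

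MUC6, the gel-forming mucin of gastric glands, gave no call. Its levels at 24 h ran from 5.99 to 6.34 with a median of 6.05 over the 12 exposed arrays, against 6.24, 6.11 and 6.21 in the control. At 1 h the exposed arrays ran from 5.97 to 6.40 with a median of 6.12, against 6.19, 6.26 and 6.18 in the control. The ranges overlapped at both times. The changes against control lay between -0.16 and 0.07, with 95% intervals reaching from -0.32 to 0.24.

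Between 24 h and 1 h, 5 of 75 tests passed (4 higher and 1 lower at 24 h). In the controls, 2 of 15 members rose, where 18.1% of all probe sets were called, 7.22% higher and 10.9% lower. MUC13 was 0.20 ± 0.05 higher at 24 h (9.90, 9.84 and 9.90 at 24 h, against 9.58, 9.73 and 9.71 at 1 h, adjusted p = 0.00407). MUC5AC 217187_at was 0.43 ± 0.14 higher (6.12, 6.21 and 6.28 at 24 h, against 6.01, 5.73 and 5.60 at 1 h, adjusted p = 0.0372). Neither pair of groups overlapped, as was so for 34.2% of all probe sets.
In the exposed groups, MUC13 fell by 0.16 ± 0.05 on the log2 scale in MWCNT at 10 µg/ml (9.69, 9.88 and 9.68 at 24 h, against 9.87, 9.94 and 9.90 at 1 h, adjusted p = 0.0205), although 1 array of the 24 h group lay within the 1 h range. It was the 1 member called there, with 21.2% of all probe sets called. MUC5AC 214303_x_at rose by 0.23 ± 0.08 in TiO2-NB at 100 µg/ml (7.0, 6.89 and 6.92 at 24 h, against 6.62, 6.70 and 6.79 at 1 h, adjusted p = 0.0405, 27.0% of all probe sets called), without overlap. The groups of that comparison did not overlap in 40.2% of all probe sets.
MUC5B 222268_x_at rose by 0.24 ± 0.08 in TiO2-NB at 10 µg/ml (4.19, 4.18 and 4.32 at 24 h, against 3.98, 3.83 and 4.16 at 1 h, adjusted p = 0.0356, 27.3% of all probe sets called), also without overlap. There, 37.3% of all probe sets did not overlap. In MWCNT at 100 µg/ml no member passed, with 25.4% of all probe sets called. There 1 member, MUC2, had an unadjusted p under 0.05 in limma, as had 7896 of all 22215 probe sets. The MUC2 change was 0.15 ± 0.07 (adjusted p = 0.119). Of these 5 calls, MUC13 in the controls was kept whichever array was left out. MUC5AC 217187_at was lost without any array but the first 1 h one (adjusted p up to 0.169), and MUC5AC 214303_x_at without any but the third 1 h one (up to 0.161). MUC13 in MWCNT at 10 µg/ml was lost without the second 1 h array or the first or the third 24 h array (up to 0.127), and MUC5B without the first or second 1 h array or the third 24 h array (up to 0.220). MUC5B was also lost with an intensity trend and robust variances (adjusted p = 0.0571).

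**Figure D5:**
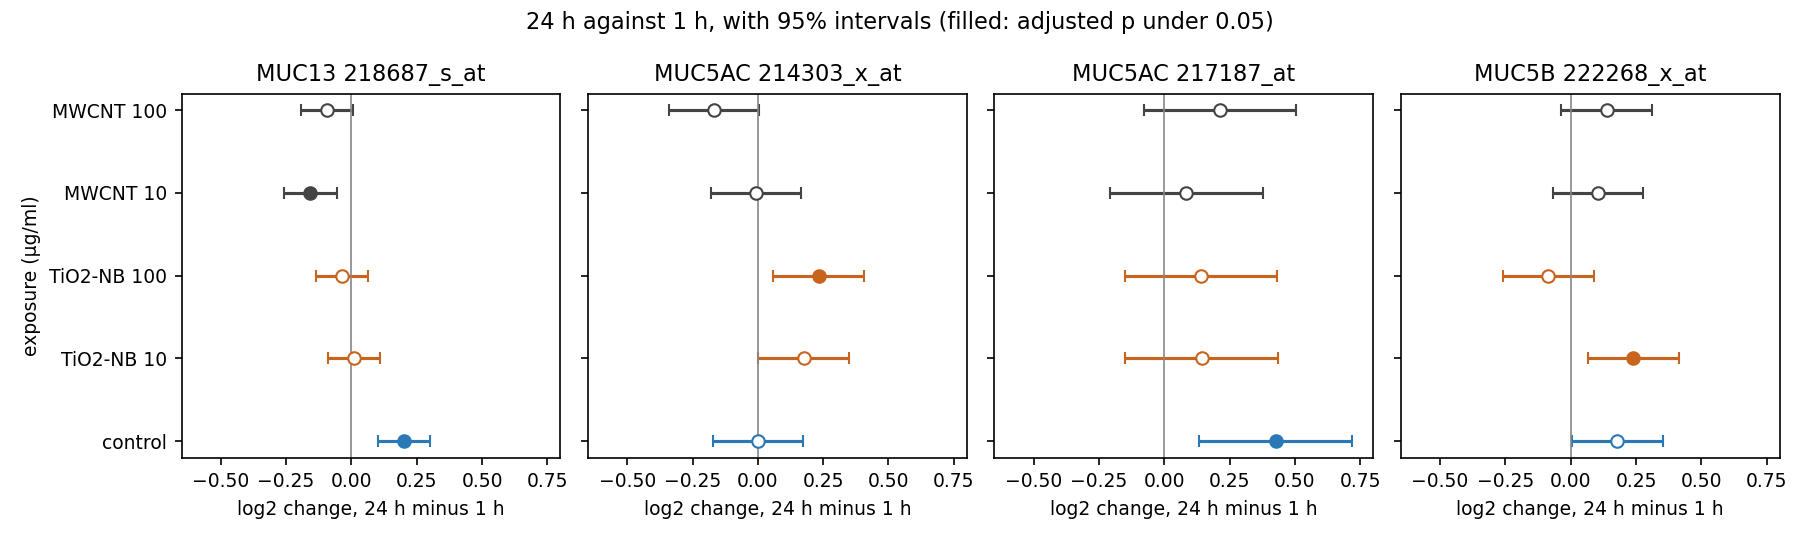
Log2 change at 24 h against 1 h (horizontal axis) with 95% intervals for the 4 mucin probe sets with a call, by exposure (vertical axis); filled points have an adjusted p under 0.05. MUC13 lies at 0.20 in the control and at -0.16 in MWCNT at 10 µg/ml, and the other calls are 1 filled point in each of the MUC5AC and MUC5B panels.

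Neither dose nor particle gave a call on a mucin. Between 100 and 10 µg/ml, 0 of 60 tests passed in limma and 3 had an unadjusted p under 0.05, all in TiO2-NB at 1 h. They were MUC1 207847_s_at (0.21), MUC2 (0.20) and MUC5B 222268_x_at (0.20). Of all 22215 probe sets, 1427 had an unadjusted p under 0.05 in limma in that comparison. Among all probe sets, 0% were called for MWCNT at 24 h, MWCNT at 1 h and TiO2-NB at 1 h, and 1.83% for TiO2-NB at 24 h.
For MUC13 the 95% intervals of the 100 against 10 µg/ml differences spanned -0.13 to 0.16. For MWCNT against TiO2-NB at matched dose and time, 0 of 60 tests passed in limma and 6 had an unadjusted p under 0.05. Those were 2 at 100 µg/ml and 1 at 10 µg/ml at 24 h, and 2 and 1 at 1 h. Of all 22215 probe sets, 2803, 1083, 2055 and 3041 were under 0.05 in limma, in the same order. Among all probe sets, 2.88% were called at 100 µg/ml and 0.0315% at 10 µg/ml at 24 h, and 0% and 0.0675% at 1 h.
The smallest unadjusted p of that family belonged to MUC2 at 100 µg/ml at 1 h, where MWCNT arrays had 5.88, 5.85 and 5.95 and TiO2-NB arrays had 6.21, 6.19 and 6.26. The difference was -0.33 ± 0.07 (95% interval -0.47 to -0.18, unadjusted p = 9.56e-05, adjusted p = 0.126), and the groups did not overlap, as was so for 12.9% of all probe sets. MUC5AC 214303_x_at at 100 µg/ml and 24 h had 6.60, 6.68 and 6.65 in MWCNT against 7.0, 6.89 and 6.92 in TiO2-NB, a difference of -0.29 ± 0.08 (adjusted p = 0.0600), also without overlap, as in 20.7% of all probe sets. That comparison was called under 4 other settings (adjusted p 0.0262 to 0.0468).

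Other mucin genes gave no call against control: 6 of the 13 listed (MUC3A, MUC7, MUC8, MUC16, CD164 and EMCN) were measured. Of all probe sets, 6.46% to 8.43% were called against control at 1 h and 0.00450% to 3.53% at 24 h. MUC3A, an intestinal membrane mucin, changed by 0.13 in TiO2-NB at 100 µg/ml (adjusted p = 0.139) and 0.14 in TiO2-NB at 10 µg/ml (adjusted p = 0.118) at 1 h. The list's 1 call in time was MUC16, lower by 0.29 at 24 h in TiO2-NB at 10 µg/ml (a log2 change of -0.29, adjusted p = 0.0108), with mean levels of 3.24 at 24 h and 3.52 at 1 h, low on the array. In that comparison 27.3% of all probe sets were called.

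Of 35 measured mucin O-glycosylation enzymes, with each gene read by its highest probe set, 2 rose and 1 fell in MWCNT at 100 µg/ml, 0 and 1 in MWCNT at 10 µg/ml, 2 and 4 in TiO2-NB at 100 µg/ml, and 0 and 2 in TiO2-NB at 10 µg/ml, all at 1 h. Called either way, that is 8.57%, 2.86%, 17.1% and 5.71% of the enzymes, beside 9.44%, 7.86%, 10.5% and 9.52% of all genes in the same order. GCNT1, which builds the core 2 branch of O-glycans, was called lower in all 4 exposures at 1 h, as were 1.84% of all probe sets. On the log2 scale it fell by 0.48 in MWCNT at 100 µg/ml and 0.36 in MWCNT at 10 µg/ml. In TiO2-NB it fell by 0.49 at 100 µg/ml and 0.43 at 10 µg/ml (adjusted p 6.67e-06 to 0.000410 over the 4).
FUT4, a fucosyltransferase, rose by 0.19 in MWCNT and 0.20 in TiO2-NB at 100 µg/ml. ST3GAL1, a sialyltransferase acting on core 1 chains, rose by 0.43 in MWCNT at 100 µg/ml (adjusted p = 0.0160), while GCNT3, a mucin-type core 2 and 4 branching enzyme, rose by 0.38 in TiO2-NB at 100 µg/ml (0.0134).
The sialyltransferase ST6GALNAC4 fell by 0.25 in TiO2-NB at 100 µg/ml and by 0.25 at 10 µg/ml. At 24 h the calls were 3 of the 35 in TiO2-NB at 100 µg/ml, where 3.15% of all genes were called. GALNT6, which starts O-glycan chains, fell by 0.77 (adjusted p = 0.000422) and ST3GAL1 by 0.44 (0.0212), while GALNT7 rose by 0.17 (0.0238). The median over the 35 enzymes lay between -0.02 and 0.02 in all 8 comparisons, and that of all genes between -0.02 and 0.01.

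Of 21 measured mucus partners and secretion genes, 1 rose and 0 fell at 1 h in MWCNT at 100 µg/ml (9.44% of all genes called), 0 and 0 in MWCNT at 10 µg/ml (7.86%), 1 and 2 in TiO2-NB at 100 µg/ml (10.5%), and 1 and 0 in TiO2-NB at 10 µg/ml (9.52%). SLC12A2, the basolateral chloride importer of secretory cells, rose at 1 h by 0.38 in MWCNT at 100 µg/ml, 0.32 in TiO2-NB at 100 µg/ml and 0.36 in TiO2-NB at 10 µg/ml (adjusted p 0.00124 to 0.00486). TFF2, a trefoil peptide secreted with mucins, fell by 0.22 (adjusted p = 0.0164), and CFTR, the apical chloride and bicarbonate channel, by 0.28 (0.0370), both in TiO2-NB at 100 µg/ml at 1 h. TFF2 was the 1 goblet marker of 11 called in any of the 8 comparisons with control, and no partner gene was called at 24 h. At 1 h the goblet list's group means were 8.86 in MWCNT at 100 µg/ml, 8.89 in MWCNT at 10 µg/ml, 8.91 in TiO2-NB at 100 µg/ml and 8.95 in TiO2-NB at 10 µg/ml, against 8.95 in the control, and the part of these in the mucin results was not tested.

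Of 29 measured regulators of goblet cells and mucin genes, 3 rose and 2 fell in MWCNT at 100 µg/ml, 1 and 1 in MWCNT at 10 µg/ml, 2 and 1 in TiO2-NB at 100 µg/ml, and 2 and 1 in TiO2-NB at 10 µg/ml at 1 h. PPARG, a nuclear receptor of differentiated colonocytes, fell by 0.74 in MWCNT at 100 µg/ml, 0.78 in MWCNT at 10 µg/ml, 0.88 in TiO2-NB at 100 µg/ml and 0.81 in TiO2-NB at 10 µg/ml on the log2 scale. KLF5, a Krüppel-like factor of intestinal epithelium, rose by 0.41, 0.49, 0.33 and 0.39 in the same order. HES1, a Notch target that opposes secretory fate, rose in 3 of the 4 (0.28 to 0.43), and CDX2, the caudal homeobox factor of intestinal identity, fell by 0.24 in MWCNT at 100 µg/ml (adjusted p = 0.00922). At 24 h STAT3 fell by 0.76 and FOXA2, a forkhead factor, by 0.20, both in TiO2-NB at 100 µg/ml (adjusted p = 3.53e-06 and 0.0326, with 3.15% of all genes called). The 1 h counts stand beside 7.86% to 10.5% of all genes called at 1 h. Of all probe sets, 1.84% were called lower and 0.905% higher in all 4 exposures at 1 h.

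The genes whose levels ran most like MUC13 over the 30 arrays were SPRY1 (r = 0.78), ICOSLG (0.75) and LRRFIP1 (0.73), and over the 10 group means SPRY1 (0.93), AKT2 (0.92) and DYRK2 (0.92). For MUC5AC 214303_x_at they were EIF2AK2 (0.76), GCN1 (0.75) and EIF3M (0.75) over arrays, and for MUC2 HOXA2 (0.62), MAP4 (0.62) and TMEM59L (0.60). For MUC5B 222268_x_at the gene COG5 came first over arrays (0.68) and over group means (0.95). MUC6 was nearest to RANBP3 (0.76), MUC1 213693_s_at to PARP6 (0.74) and MUC4 204895_x_at to DUS2 (0.70). These values are the highest over all genes and describe arrays that share groups and normalisation.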

How the data were processed

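Expression was measured on 30 Affymetrix arrays, 3 per group, in cell line co-cultures. The authors' deposited table holds 1 log2 level per probe set and array, made with RMA, per the submitters' processing notes. For the RMA version and chip definition, the sources used here give nothing. Of 22277 probe sets, 62 controls were left out. The values were not rescaled. Groups were taken from the labels. In R 4.3.3 with limma 3.58.1, group means were fitted over all 30 arrays (20 residual degrees of freedom, 3.68 prior), with two-sided contrasts, Benjamini-Hochberg adjustment over all 22215 probe sets of a comparison, and a call at an adjusted p under 0.05; 25 comparisons and 2 F-tests were made. The ± is limma's standard error. In list counts, 1 probe set stood for a gene, that of the highest mean (11963 genes). Symbols came from the platform annotation (19064 probe sets had 1 symbol, 1043 several, 2108 none). Named genes were the members, the 3 most like genes, and up to 6 per list by unadjusted p. Members and lists were chosen with earlier results of these data known. The fit was tested on simulated arrays with independent noise, where recovery was required only for changes larger than those called for the mucins. Array number, not read depth, limits the precision. Alternatives were the compared groups only, a replicate block, a filter on the lowest 1 in 3 probe sets, second quantile normalization, array weights, variances robust and with an intensity trend, 1 probe set per gene, the 18S level as covariate, and leaving out each array.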

Additional observations from a re-analysis of the deposited data

Results flagged for a closer look

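MUC13, the transmembrane mucin, differed between the 2 times in its change against control. Its change against control was lower at 24 h than at 1 h by -0.36 in MWCNT at 10 µg/ml (interaction in limma, adjusted p = 0.00674), by -0.30 in MWCNT at 100 µg/ml (adjusted p = 0.0189) and by -0.24 in TiO2-NB at 100 µg/ml (adjusted p = 0.0365), on the log2 scale. All 3 share the 6 control arrays, whose MUC13 levels were 9.90, 9.84 and 9.90 at 24 h and 9.58, 9.73 and 9.71 at 1 h. The control mean thus rose by 0.20, which is part of each difference. From 1 h to 24 h the exposed means went from 9.91 to 9.75, from 9.87 to 9.78 and from 9.91 to 9.87, in the order above. Of these, only the first fall was called between times. The 5′ 18S ribosomal RNA probe set differed between the control groups by 0.27 (exact two-sided permutation p = 0.2) at 24 h against 1 h. With the 18S level as a covariate the 3 differences were -0.35 (adjusted p = 0.0211), -0.29 (0.119) and -0.24 (0.0597) in the order given above, so 1 call was kept and 2 were lost while the sizes moved by little.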

How the results depend on the processing

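Fitted to the compared groups alone, with fewer residual degrees of freedom, the calls were 1 of 120 against control (the MUC5AC call at 24 h), 3 of 75 between times (MUC5AC 217187_at and 214303_x_at, and MUC4 204895_x_at in the controls, adjusted p = 0.0424, not called over all arrays), 0 of 60 for the change of the exposure effect between times, and 1 member called in the F-tests (MUC5AC at 24 h), against 8, 5, 3 and 2 in the fit over all arrays. The MUC13 calls at 1 h then had adjusted p of 0.122 to 0.25. With 1 probe set per gene, the calls were 5 against control and 3 between times. That setting left out MUC5B 222268_x_at, MUC4 217110_s_at and MUC5AC 217187_at, so it did not test their calls. The filter on the lowest 1 in 3 probe sets left out 222268_x_at and 217110_s_at too. With the 18S level as a covariate the calls were 5 against control, 1 for the change of the exposure effect, and 1 in the F-tests. The F-test call was MUC5B 222268_x_at at 1 h (adjusted p = 0.0351), and neither MUC2 nor MUC13. For MWCNT against TiO2-NB, 1 call appeared without the lowest 1 in 3 probe sets, with second quantile normalization, with intensity trend and robust variances, and with array weights, in each case MUC5AC 214303_x_at at 100 µg/ml and 24 h. With the replicate numbers as a block, 1 call between times was left, MUC13 in the controls, and the calls of MUC4 217110_s_at (adjusted p = 0.0512) and of the MUC13 interaction for TiO2-NB at 100 µg/ml (0.0580) were lost; same-numbered arrays had correlations of -0.20 to 0.21 at 1 h and -0.13 to 0.18 at 24 h, with 4 of 30 pairs over 0.1 at each time, so the numbers were not taken as pairs. Leaving out 1 array at a time gave 5 to 8 calls against control, 4 to 6 between times, 0 to 0 for dose, 0 to 1 for particle, 1 to 3 for the change of the exposure effect and 1 to 3 in the F-tests. MUC13 in MWCNT at 10 µg/ml and TiO2-NB at 100 µg/ml at 1 h kept its call without any 1 of the 6 arrays; TiO2-NB at 10 µg/ml lost it without the first 1 h control array or its own first or second array. In time, MUC5AC 217187_at and 214303_x_at lost their calls without any 1 of 5 of 6 arrays, and MUC13 in MWCNT at 10 µg/ml and MUC5B in TiO2-NB at 10 µg/ml without any 1 of 3. No result turned its direction under any of these settings. Most mucin probe sets lie at or below the middle of the array's range, where small changes are hard to see.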
